A study of Mus musculus with 9 samples.

Results

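The 9 prostate libraries of this series fall into 2 sets by the raw read count of Sbp, the gene of spermine-binding protein: 6 libraries with over 100000 counts, called Sbp-rich here, and 3 with under 1000, called Sbp-poor. The sets were chosen by the measured counts of this 1 gene and not from any label. The lowest Sbp-rich library held 604256 counts and the highest Sbp-poor library 309, a ratio of 1956, and no library lay between. Sbp-poor are WT 1, WT 3 and Het 2. Sbp-rich are WT 2, Het 1, Het 3 and all 3 KO libraries.

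The series measured polyA-enriched RNA from mouse prostate tissue by bulk RNA sequencing, with 3 libraries per genotype at Srd5a2, the gene of the steroid 5-alpha-reductase type II that makes dihydrotestosterone. WT carry 2 intact alleles, Het carry 1 null allele, and KO are Srd5a2-null; the line was bred by crossing heterozygous males to C57BL6 wild-type females, and no treatment is named for any group. The lobes dissected, the age of the mice, which part of the gene is deleted and whether each library is a separate animal are not stated in the labels. P-values therefore describe only the spread among the samples, part of which may be technical. Srd5a2 itself stood at 0.934, 0.512 and 1.15 CPM (counts scaled to a common library size) in KO 1 to 3 and at 2.30 to 8.81 CPM in the 6 other libraries, so it was lowest in the libraries labelled KO.

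The mouse prostate has paired ventral, dorsal, lateral and anterior lobes, each draining into the urethra by its own ducts. Their luminal cells are all fed by androgen and all secrete, but each lobe makes its own set of proteins. Spermine-binding protein and the trypsin inhibitor encoded by Spink1 are abundant secretions of the rodent ventral lobe, and prostatic fluid is rich in the polyamines spermine and spermidine. Transglutaminase 4 (Tgm4) and probasin (Pbsn) are better known from the dorsal, lateral and anterior lobes, and the Svs proteins from the seminal vesicles, which lie against the anterior lobes.

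The sequences below are the 250 bases upstream of the RefSeq start of Sbp, of its neighbour Sbpl, of Crabp1 and of C2cd4a (GRCm38.p6), shown because Sbp made the split, Crabp1 marks the ventral lobe with it, and Sbpl and C2cd4a had the largest differences among genes absent from the Sbp-poor libraries. They are written 5′ to 3′ on the gene's strand. Capitals mark an androgen receptor half-site (AGAACA, or TGTTCT on the other strand) or a TATA box (TATAAA, or TTTATA).
Sbp, chr17:23941428-23941677, plus strand: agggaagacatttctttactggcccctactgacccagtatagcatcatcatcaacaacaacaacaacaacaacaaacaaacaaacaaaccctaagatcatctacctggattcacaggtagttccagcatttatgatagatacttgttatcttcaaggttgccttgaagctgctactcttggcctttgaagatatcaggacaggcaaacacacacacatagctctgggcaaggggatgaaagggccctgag
Sbpl, chr17:23955274-23955523, minus strand: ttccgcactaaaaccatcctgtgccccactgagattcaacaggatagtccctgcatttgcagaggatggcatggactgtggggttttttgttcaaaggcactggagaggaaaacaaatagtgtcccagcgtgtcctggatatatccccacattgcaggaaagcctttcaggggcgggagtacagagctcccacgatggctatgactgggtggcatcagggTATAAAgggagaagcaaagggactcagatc
Crabp1, chr9:54764498-54764747, plus strand: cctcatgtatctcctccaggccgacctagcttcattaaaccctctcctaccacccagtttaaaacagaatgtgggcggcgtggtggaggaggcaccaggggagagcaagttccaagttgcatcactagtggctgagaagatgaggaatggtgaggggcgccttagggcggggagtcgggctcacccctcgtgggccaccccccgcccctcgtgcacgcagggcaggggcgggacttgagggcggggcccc
C2cd4a, chr9:67832331-67832580, minus strand: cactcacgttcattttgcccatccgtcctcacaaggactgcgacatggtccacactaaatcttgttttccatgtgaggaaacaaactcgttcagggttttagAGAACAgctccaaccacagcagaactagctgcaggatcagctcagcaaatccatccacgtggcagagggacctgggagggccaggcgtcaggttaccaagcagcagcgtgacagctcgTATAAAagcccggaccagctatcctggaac

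Sbpl and C2cd4a each had a TATAAA whose first base lies 30 bases before the start, and C2cd4a had 1 half-site, first base 148 bases before the start. Sbp and Crabp1 had neither motif in this window, and none of the 4 had the forkhead core TGTTTAC or GTAAACA. The Crabp1 window was the richest in G and C, at 63.6%, against 43.6% for Sbp. Over all 27025 genes with a RefSeq window, 16.2% held the half-site, 13.0% the TATA box and 3.09% the forkhead core on either strand. Of the genes described below as higher in Sbp-rich libraries, 98 had a window matched by symbol: 14 held the half-site (14.3%), 14 the TATA box (14.3%) and 0 the forkhead core, against 11.1%, 6.97% and 2.25% of the 11930 tested genes with a window. Of the genes lower in Sbp-rich libraries, 10 had a window, with the half-site in 4 and the TATA box in 1. A match describes letters only.

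Values below are given in CPM scaled by TMM (trimmed mean of M-values) library factors. Unless the libraries are named, the 3 Sbp-poor libraries come in the order WT 1, WT 3, Het 2, and the 6 Sbp-rich libraries in the order WT 2, Het 1, Het 3, KO 1, KO 2, KO 3. Library totals ran from 16233392 to 24017791 counts. Thinned to equal depth, the libraries detected 16733 to 19994 genes, with the 3 Het libraries lowest (16733 to 17586), and the 20 most abundant genes took 25.2% to 39.5% of the counts.

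Sbp went from a trace to one of the most abundant messages of the tissue. It stood at 0.994, 16.02 and 7.26 CPM in the Sbp-poor libraries and at 55578, 143989, 113544, 34575, 34372 and 56195 CPM in the Sbp-rich ones. It took 3.54% to 14.3% of all counts in the latter. On the deposited length-scaled values (FPKM, fragments per length and library size) it ranked 1 to 4 among all genes in each Sbp-rich library, with a median of 37009 FPKM, against a median of 4.93 FPKM in the Sbp-poor ones. Both Het libraries of the Sbp-rich set were above WT 2 and every KO library, and KO 1 and KO 2 were the lowest 2 of the 6. These values made the split and are given as a description.

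**Figure D1:**
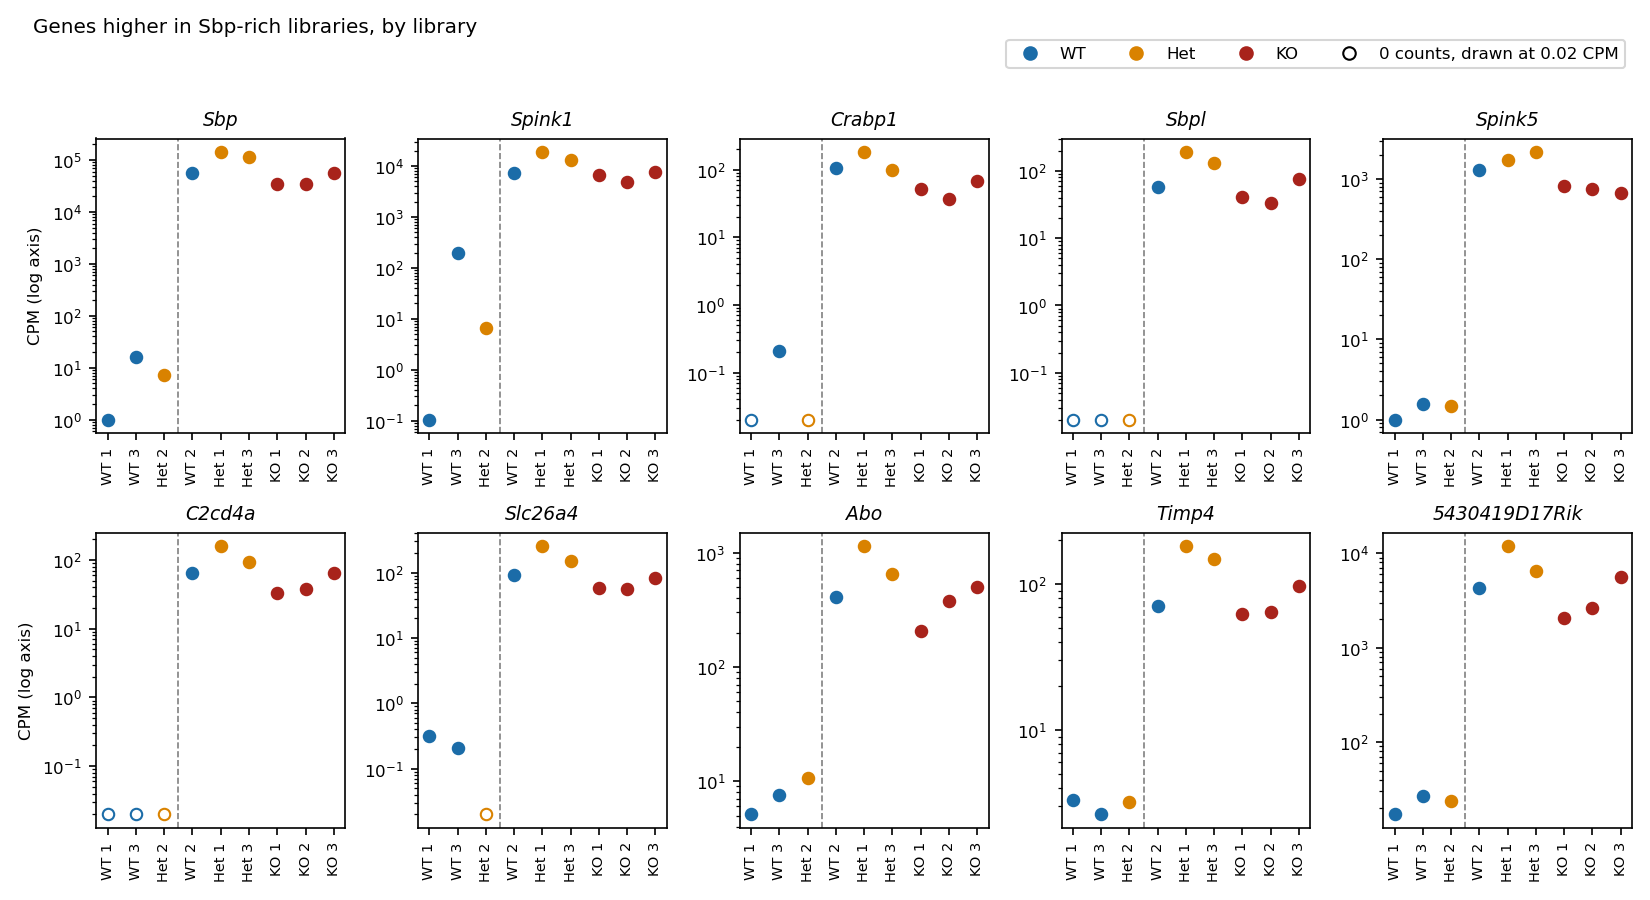
CPM (log axis) of Sbp, the 2 other ventral lobe markers and 7 further genes in each library, coloured by genotype, with Sbp-poor libraries left of the dashed line and hollow points for 0 counts, drawn at 0.02 CPM. In every panel the 6 points on the right lie above the 3 on the left, and Het 1 or Het 3 is the highest.

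Spink1 (chromosome 18, 43728069 to 43737237), whose product is a secreted trypsin inhibitor, separated the same libraries by level, with more spread among the Sbp-poor ones. It stood at 0.105, 197 and 6.76 CPM in the Sbp-poor libraries and at 7102, 18833, 12942, 6494, 4793 and 7612 CPM in the Sbp-rich ones. In WT 3 it had 1232 counts per 100 counts of Sbp, against 11.4 to 18.8 per 100 in the Sbp-rich libraries. The log2 fold change with genotype as a covariate was 8.65 (SE 2.86), 95% interval 1.65 to 15.66, and edgeR's quasi-likelihood test did not call it (Benjamini-Hochberg adjusted p = 0.308). Without WT 3 the log2 fold change was 12.43 and the adjusted p 0.018 in edgeR, and DESeq2 and limma voom also called Spink1 on all 9 libraries (8.67, adjusted p = 0.00015, and 10.80, adjusted p = 0.016).

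Crabp1 (chromosome 9, 54764748 to 54773110), whose product carries retinoic acid in the cytoplasm, was close to absent from the Sbp-poor set. It had 0, 4 and 0 counts there, or 0, 0.207 and 0 CPM, and 104, 183, 99.4, 51.7, 36.6 and 68.7 CPM in the Sbp-rich libraries. The log2 fold change was 10.69 (SE 0.75), and the difference was 9.19 within WT and 10.35 within Het. Spink1 and Crabp1 thus set apart the same 6 libraries as Sbp. The sum of the 3 genes was 1.10 to 213.5 CPM in the Sbp-poor set and 39202 to 163005 CPM in the Sbp-rich set. Most of that sum in the Sbp-rich set was Sbp, which made the split, so it adds nothing to the 2 other genes. Both markers that the split did not use were higher in every Sbp-rich library than in any Sbp-poor one, though edgeR did not call Spink1. The gene lists were chosen with earlier results of these data known, so this is a description and no independent check. In bulk tissue, fewer cells of a type and less RNA per cell cannot be told apart.

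Secretory genes of the other lobes were present at high levels in both sets, and none passed in edgeR. All 7 tested members of the dorsal, lateral and anterior list had positive log2 fold changes (median 0.72, against 0.01 over all genes tested); edgeR called 0 and DESeq2 called 1 (Apof), and 3 had an unadjusted p under 0.05. Tgm4 stood at 14714, 4015 and 641 CPM in the Sbp-poor libraries and at 5647, 4871, 864, 5763, 3724 and 1777 CPM in the Sbp-rich ones. Pbsn stood at 13056, 8323 and 2508 CPM and at 10907, 6299, 2697, 10613, 6823 and 4416 CPM. For both genes WT 1 was the highest of all 9 libraries and Het 2 the lowest, and the sets overlapped. The signs of the Tgm4 and Pbsn values (0.72 (SE 1.27) and 0.44 (SE 0.46)) turned without genotype in the model (-0.77 and -0.19) and when the score of seminal vesicle genes was added (-0.48 and -0.052).

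Msmb, the gene of beta-microseminoprotein, and Defb50, a beta-defensin gene, had larger values in the same list. Msmb stood at 54.4, 67.3 and 254 CPM in the Sbp-poor libraries and at 236 to 1153 CPM (median 691) in the Sbp-rich ones, with Het 3 below Het 2, and its log2 fold change was 2.61 (SE 0.90). Defb50 was the one member whose sets did not overlap, at 208, 225 and 276 CPM against 281 to 1488 CPM (median 949.9), with Het 3 only just above Het 2 and a log2 fold change of 2.03 (SE 0.58). Apof, an apolipoprotein gene, had 1.25 (SE 0.46). In the 3 Sbp-poor libraries the summed level of the list was 17902 to 177578 CPM, and in the Sbp-rich ones 27301 to 92411 CPM.

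Across the transcriptome, 138 of 16836 genes tested (0.82%) were higher in the Sbp-rich libraries at an adjusted p under 0.05 in edgeR with genotype as a covariate, Sbp among them, and 12 (0.0713%) were lower, 150 in all (0.891%). Here such genes are said to be called higher or lower; because the split was made from these libraries' own counts, the call sorts genes and is no independent support for the split. Of the 138, 39 had log2 fold changes over 5, 92 over 2 and 46 at or under 2, with a median of 2.88. The 12 lower genes lay between -1.91 and -1.03, so among the called genes the differences were far larger on the higher side. At an unadjusted p under 0.05 in edgeR the sides were closer in number, with 1095 genes higher and 975 lower. Uniform p-values would give 842 genes over both sides. DESeq2 called more genes than edgeR on both sides (counts under the dependence on processing below), so its counts for a list have a larger background. All 6 Sbp-rich libraries were above all 3 Sbp-poor ones for 137 of the 138, against 661 of all genes tested (3.93%), and below them for 10 of the 12, against 354 (2.1%).

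Because all KO libraries were Sbp-rich, the fitted difference rested on WT (1 Sbp-rich against 2 Sbp-poor) and Het (2 against 1), and KO and the Sbp-rich state cannot be told apart. Only 9 arrangements of Sbp-rich and Sbp-poor exist within WT and Het, so an exact permutation test over them could not go below a one-sided p of 0.111. Leaving out 1 library left 35 (without Het 2) to 175 (without Het 1) genes called higher, and WT and Het alone 28.

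**Figure D2:**
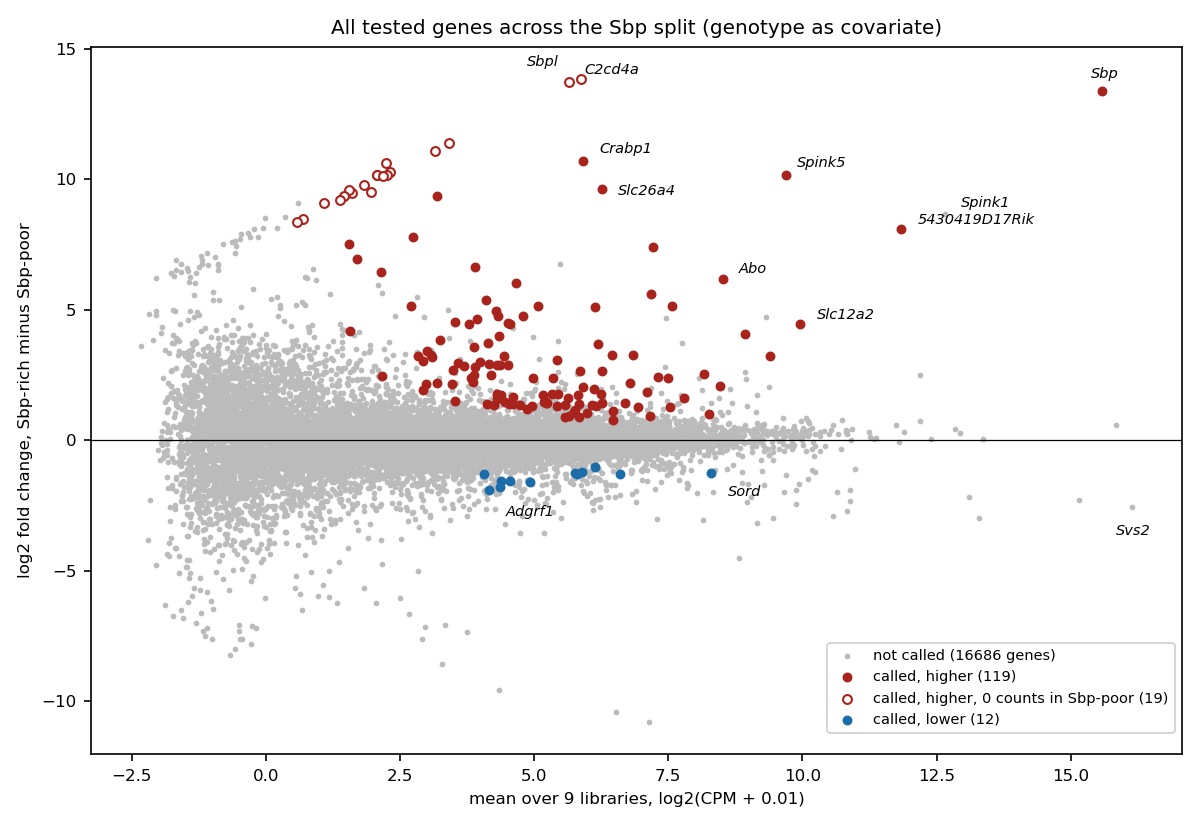
Log2 fold change of Sbp-rich over Sbp-poor libraries against mean log2(CPM + 0.01) for all 16836 genes tested, with called genes coloured and hollow points for the 19 called genes that have 0 counts in every Sbp-poor library, whose fitted values depend on the prior count. The called higher genes reach far up at all levels of abundance, the 12 called lower genes lie close below 0, and Spink1 and Svs2 are not called.

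Taken over the called higher genes without Sbp, the mean log2 CPM less the mean of the 9 libraries was -2.32, -2.24 and -1.95 in the Sbp-poor set and 0.98, 1.99, 1.36, 0.54, 0.72 and 0.92 in the Sbp-rich set. The same genes took 0.218% to 0.238% of the counts in the Sbp-poor libraries and 1.03% to 3.44% in the Sbp-rich ones. All 137 were detected in each Sbp-rich library and 110 to 116 of them in each Sbp-poor one. Het 1 was the highest library, as it was for Sbp, and KO 1 the lowest of the Sbp-rich set. These genes were chosen because they were higher in the same Sbp-rich libraries. The gap between the sets therefore follows from that choice and is a description only.

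Genes of other protease inhibitors were among the largest differences. Spink5 (chromosome 18, 43963235 to 44022501), the gene of a multidomain serine protease inhibitor of epithelia, had the smallest p of all genes and stayed called under all 22 alternatives tried. It stood at 0.994, 1.56 and 1.47 CPM in the Sbp-poor libraries and at 1295, 1734, 2171, 819, 754 and 660.2 CPM in the Sbp-rich ones. The log2 fold change was 10.17 (SE 0.29), about 1150.4-fold, with 9.91 within WT and 10.27 within Het. Unlike Spink1, its 3 Sbp-poor libraries lay close together.

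Serpinb11, a serpin of the clade B family, stood at 0.105, 0 and 0 CPM against 5.55 to 21.7 CPM (median 7.47), a log2 fold change of 7.77 (SE 1.03). Csta1, a gene of the stefin family of cysteine protease inhibitors, had 0 counts in every Sbp-poor library and 4.15 to 28.2 CPM (median 9.09) in the Sbp-rich ones. The mean of WT 2, Het 1 and Het 3 was set against a floor of 3 counts over the 3 Sbp-poor libraries together. By this measure, which leaves out the KO libraries, Csta1 was at least 390.1-fold higher. Timp4, an inhibitor of matrix metalloproteinases, stood at 3.29, 2.64 and 3.22 CPM against 70.4, 182, 148, 62.00, 64.3 and 97.2 CPM, a log2 fold change of 5.11 (SE 0.32). Of the 26 tested genes on the list of secreted protease inhibitors, edgeR called Spink5 and Serpinb11 (DESeq2 4 higher and 0 lower), 18 had negative values and the median was -0.46. Tmprss4, a membrane-bound serine protease, was the one gene that edgeR called of 13 tested serine proteases (DESeq2 also 1) (4.19 (SE 0.76)), at 0.105, 0 and 0.552 CPM against 1.997 to 8.0 CPM (median 3.79), and that call ended when any 1 library other than Het 1 or Het 3 was left out.

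Sbpl (chromosome 17, 23953085 to 23954919), the spermine-binding protein-like gene 7478 bases from Sbp, and C2cd4a (chromosome 9, 67830489 to 67832330), which encodes a protein with a C2 calcium-dependent domain, had 0 counts in all 3 Sbp-poor libraries. Sbpl stood at 56.9, 192, 129, 40.8, 32.8 and 74.7 CPM in the Sbp-rich ones. Its mean over WT 2, Het 1 and Het 3 was at least 2529-fold higher against the same floor. C2cd4a stood at 64.8, 157, 93.5, 33.01, 37.6 and 64.02 CPM, with its mean over WT 2, Het 1 and Het 3 at least 2108-fold higher. Sbpl had 0.0955 to 0.133 counts per 100 counts of Sbp in the 6 libraries, and the longest transcripts of the 2 genes (1002 and 878 bases) are 85.8% identical over 900 aligned positions with an identical run of 154, so some of its counts may be reads of Sbp. In all, 19 called genes had 0 counts in every Sbp-poor library, at least 61.7-fold to 2529-fold higher by this measure.

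5430419D17Rik (chromosome 7, 131174402 to 131306451), a protein-coding gene known by its clone name, had the highest FPKM of the called genes after Sbp. It stood at 17.2, 26.6 and 23.9 CPM in the Sbp-poor libraries and at 4302, 11842, 6539, 2070.5, 2642 and 5566 CPM in the Sbp-rich ones, a log2 fold change of 8.10 (SE 0.59). Its median FPKM was 560.7 in the Sbp-rich and 2.78 in the Sbp-poor libraries, ranks 62 and 8638 among the 16836 genes tested. Abo (chromosome 2, 26842503 to 26864979), the glycosyltransferase gene of the ABO blood group sugars, stood at 5.13, 7.57 and 10.8 CPM against 408, 1136, 646, 206, 380.4 and 498 CPM, a log2 fold change of 6.19 (SE 0.44). Both genes were called under all 22 alternatives, as were 12 others of the 138: Adi1, B4galt6, Cyp2b10, Fndc5, Gpr83, Gucy2g, Lrrc52, Nupr1, Rnf186, Rxrg, Spink5 and Timp4.

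Genes of other roles that passed with the smallest p included receptors, an enzyme and a stress protein. Gpr83, a G protein-coupled receptor, stood at 1.20, 1.35 and 2.76 CPM against 20.05 to 53.04 CPM (median 31.9) (4.44 (SE 0.26) on the log2 scale). Gucy2g, a membrane guanylate cyclase, stood at 1.88, 2.44 and 1.42 CPM against 21.3 to 79.2 CPM (median 33.3) (4.78 (SE 0.37)). Cyp2b10, a cytochrome P450, stood at 0.575, 0.363 and 1.79 CPM against 10.3 to 58.7 CPM (median 16.4) (4.96 (SE 0.32)), with Het 1 and Het 3 at 56.8 and 58.7 CPM and the other 4 at 18.5 CPM or less. Nupr1, a small nuclear protein induced by stress, stood at 4.39, 5.91 and 6.25 CPM against 74.1 to 422 CPM (median 204) (5.61 (SE 0.40)). The sets did not overlap for any of the 4. Fndc5, the membrane protein from which irisin is cut, had 4.48 (SE 0.33), and Lrrc52, an accessory subunit of potassium channels, 9.36 (SE 0.70).

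Of 27 tested genes of retinoid binding and metabolism, edgeR called Crabp1 and Rxrg higher and 0 lower (DESeq2 2 and 2), and the median over the list was 0.04. Rxrg, a retinoid X receptor, stood at 0.471, 0.518 and 1.47 CPM against 10.1 to 29.5 CPM (median 14.5), a log2 fold change of 4.51 (SE 0.34). The other retinoid X receptors, Rxra and Rxrb, had -0.41 and 0.14, without passing in either tool. Crabp2, which encodes the second cytoplasmic carrier, had -2.64, called by DESeq2 (adjusted p = 0.0264) and not by edgeR.

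In the polyamine list, 2 of 29 tested genes were called higher and 0 lower in edgeR (6 and 1 in DESeq2), and the median was 0.03. Both act on S-adenosylmethionine, the aminopropyl donor of spermidine and spermine: Mat2a makes it and Amd1 decarboxylates it. Mat2a stood at 194, 118 and 102 CPM in the Sbp-poor libraries and at 973, 2095, 826, 419.9, 584 and 749 CPM in the Sbp-rich ones (3.24 (SE 0.50)). Amd1 stood at 167, 117 and 122 CPM and at 458, 835, 486, 243, 354 and 396 CPM (2.06 (SE 0.32)). For both genes Het 1 was the highest library and KO 1 the lowest of the Sbp-rich set, and the sets did not overlap.

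The Amd1 and Mat2a calls were lost under 7 and 11 of the 22 alternatives, among them without Het 2 (1.70 and 2.65, edgeR adjusted p = 0.33 and 0.29). Amd2, a near-identical copy that may share reads with Amd1, had 1.91, called by DESeq2 (adjusted p = 0.0117) and not by edgeR. Adi1, the acireductone dioxygenase of the methionine salvage pathway that regenerates methionine after aminopropyl transfer, was chosen after its values were seen; it stood at 38.96, 32.8 and 37.7 CPM against 124, 249.6, 204, 89.9, 97.7 and 124 CPM (2.19 (SE 0.23)) and was called under all alternatives. Odc1, the ornithine decarboxylase gene, also chosen after its values were seen, had 0.56 (SE 0.16) with overlapping sets. The spermidine synthase gene Srm had 0.23, the spermine oxidase Smox -0.98 (SE 0.22) and the acetyltransferase Sat1 -0.46. Of these 4, edgeR called 0 and DESeq2 called Odc1 and Smox (adjusted p = 0.0459 and 0.0107).

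Slc26a4 and Slc26a3, neighbours 45910 bases apart on chromosome 12 that encode related anion exchangers, differed in opposite directions. Slc26a4 (chromosome 12, 31519827 to 31559969), the gene of pendrin, stood at 0.314, 0.207 and 0 CPM in the Sbp-poor libraries and at 93.2, 252, 150.4, 57.4, 56.1 and 83.2 CPM in the Sbp-rich ones, a log2 fold change of 9.61 (SE 0.71). Slc26a3 (chromosome 12, 31390871 to 31473917), a chloride and bicarbonate exchanger gene, stood at 32.6, 32.7 and 40.9 CPM and at 17.1, 8.70, 9.11, 15.7, 14.7 and 14.9 CPM, a log2 fold change of -1.56 (SE 0.27). Neither pair of sets overlapped. Per length, the median of Slc26a3 was 5.05 FPKM in the Sbp-poor and 2.28 in the Sbp-rich libraries, and that of Slc26a4 was 0.0656 and 27.6, so their order turned. Slc26a3 was called lower under 13 of the 22 alternatives, and without Het 2 its value was -0.93 (edgeR adjusted p = 0.79).

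**Figure D3:**
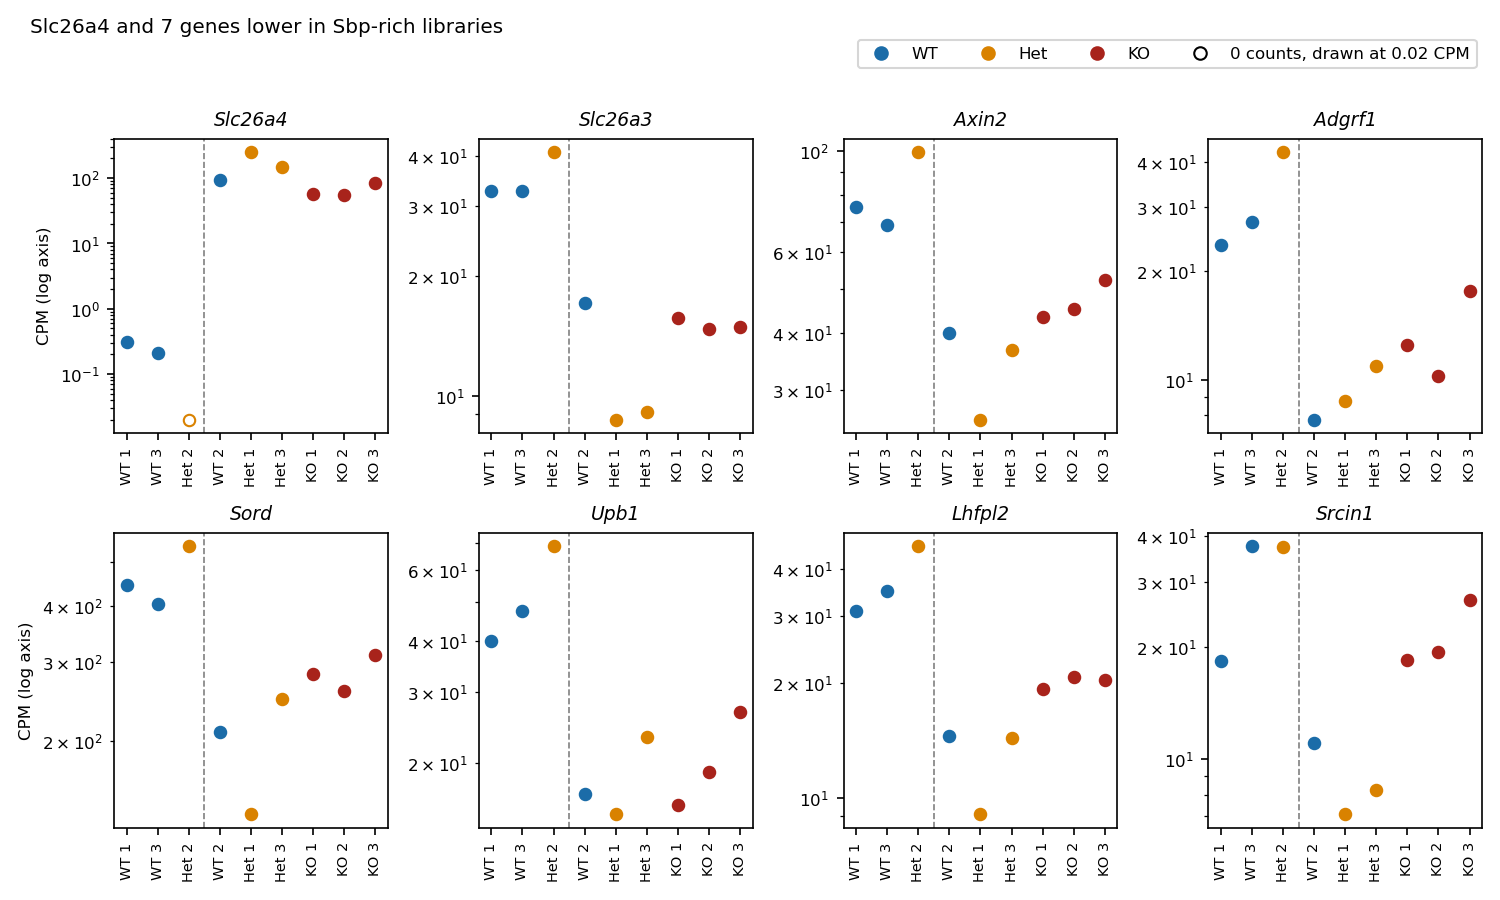
CPM (log axis, a separate scale in each panel) of Slc26a4 and of 7 genes called lower, by library and coloured by genotype, with Sbp-poor libraries left of the dashed line. Slc26a4 is higher on the right in every library, while Slc26a3 and the other 6 genes are lower there, and Srcin1 overlaps between the sets.

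Further called genes were picked after their values were seen, to show the roles that the lists do not hold. Among solute carriers, Slc12a2, the sodium, potassium and chloride cotransporter of secretory epithelia, stood at 21.8, 71.5 and 115 CPM against 1103, 3054, 1523, 648, 980.0 and 1447 CPM (4.44 (SE 0.58)). Slc5a8, a sodium-coupled carrier of monocarboxylates, stood at 0.366, 0 and 1.75 CPM against 20.3 to 69.1 CPM (median 37.1) (6.02 (SE 0.77)), and the sugar carrier gene Slc5a9 at 1.20, 1.19 and 3.95 CPM against 9.85 to 42.1 CPM (median 11.5) (2.96 (SE 0.38)). Each of the 3 was highest in Het 1.

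Enzymes of sugar and sulphate transfer were also among them. Gne, which starts sialic acid synthesis, stood at 44.5, 46.2 and 45.2 CPM against 114 to 443.7 CPM (median 185) (2.44 (SE 0.35)), and Cmas, which activates sialic acid for transfer, at 61.5, 47.1 and 51.02 CPM against 90.7 to 206 CPM (median 108) (1.42 (SE 0.22)). B4galt6, a galactosyltransferase that makes lactosylceramide, had 3.09 (SE 0.28). Papss2, which makes the sulphate donor PAPS, stood at 9.41, 12.9 and 6.39 CPM against 117 to 492 CPM (median 232) (5.15 (SE 0.61)). All 4 were lower in every Sbp-poor library than in any Sbp-rich one.

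Among surface peptidases, Anpep, the aminopeptidase N gene, stood at 9.15, 9.44 and 7.95 CPM against 56.8 to 194 CPM (median 90.96) (3.68 (SE 0.43)), and Mme, the neprilysin gene, at 125, 77.9 and 54.6 CPM against 213 to 609 CPM (median 376) (2.55 (SE 0.42)). Cbr2, a carbonyl reductase gene, stood at 33.9, 77.1 and 44.5 CPM against 355 to 1239 CPM (median 552) (4.06 (SE 0.42)). Tac1, the precursor gene of substance P, had 0 counts in the Sbp-poor libraries and 2.88 to 13.8 CPM (median 5.97) in the Sbp-rich ones. Its mean over WT 2, Het 1 and Het 3 was at least 198-fold higher. Erbb4, a receptor of neuregulins, had 3.43 (SE 0.44), and Hdac9, a class II histone deacetylase gene, 5.13 (SE 0.53).

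Among regulators, Creb3l4, a membrane-bound transcription factor of the secretory pathway that is abundant in prostate, stood at 4.50, 2.59 and 3.03 CPM against 18.1 to 58.5 CPM (median 24.7) (3.23 (SE 0.49)). It was the one gene that edgeR called of 40 on a list of the secretory pathway and of the unfolded protein response, of which 29 had positive values (median 0.24), and the one of 20 on the luminal cell list (16 positive, median 0.15). DESeq2, which called more genes over all, called 4 higher on the first list and 6 on the second, and 0 lower on either. Tead4, a partner of the Hippo pathway coactivators chosen after its values were seen, stood at 0.209, 0.259 and 0.368 CPM against 5.05 to 21.8 CPM (median 7.77) (5.15 (SE 0.52)).

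Foxa1, Hoxb13, Sox9, Gata3 and Pigr were called by DESeq2 (adjusted p = 0.000218, 0.00104, 0.00108, 0.00164 and 9.85e-07) and not by edgeR. Foxa1, a forkhead pioneer factor, stood at 208, 109 and 55.4 CPM against 189.7 to 392 CPM (median 222) (1.74 (SE 0.43)), with WT 1 inside the Sbp-rich range. Hoxb13, a homeobox gene of the prostate chosen after its values were seen, stood at 261, 169 and 45.1 CPM against 258 to 529 CPM (median 315) (1.93 (SE 0.64)), lowest in Het 2 and again with WT 1 inside the range. Sox9 had 1.22 (SE 0.25) and Gata3 -0.56 (SE 0.13), without overlap of the sets. The whole list of prostate and urogenital patterning transcription factors was near balance, with 20 of 36 tested genes positive and 16 negative (median 0.06). On it edgeR called 1 higher and 0 lower, with 10 higher and 7 lower at an unadjusted p under 0.05, and DESeq2 called 6 higher and 3 lower. Pigr, the receptor that carries polymeric immunoglobulin across epithelia, had a large value with a wide error (4.72 (SE 1.04)), at 121, 124 and 13.2 CPM against 506 to 1860.4 CPM (median 784), and Het 2 far below the other Sbp-poor libraries.

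The list of androgen-responsive genes and steroid enzymes had 17 of 30 tested genes with positive values (median 0.15); edgeR called 0, with 4 higher and 5 lower at an unadjusted p under 0.05, and DESeq2 called 1 in each direction. The list of zinc and citrate handling, 2 constituents that the prostate secretes, had 14 of 26 positive (median 0.06); edgeR called 0, with 1 in each direction at an unadjusted p under 0.05, and DESeq2 called 1 in each direction.

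The 12 genes called lower in the Sbp-rich libraries were all protein coding and changed by less. Adgrf1, an adhesion G protein-coupled receptor gene, had the largest difference: 23.6, 27.3 and 42.6 CPM in the Sbp-poor libraries and 7.77, 8.76, 10.9, 12.5, 10.2 and 17.6 CPM in the Sbp-rich ones (-1.91 (SE 0.26), 3.77-fold lower). Axin2, a feedback target of Wnt/beta-catenin signalling, stood at 75.5, 69.00 and 99.6 CPM and 39.9, 25.8, 36.6, 43.3, 45.2 and 52.1 CPM (-1.27 (SE 0.21)). Sord, the sorbitol dehydrogenase gene, stood at 446, 403 and 542 CPM and 209.9, 138, 248.7, 282, 259 and 312 CPM (-1.25 (SE 0.23)). Het 2 was the highest of all 9 libraries for these 3 genes, and Het 1 the lowest for Axin2 and Sord.

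Upb1, a beta-ureidopropionase of pyrimidine breakdown, stood at 40.1, 47.4 and 68.7 CPM against 14.9 to 26.8 CPM (median 17.9) (-1.62 (SE 0.26)), and Lhfpl2, a tetraspan membrane protein gene, at 31.01, 34.9 and 45.7 CPM against 9.08 to 20.8 CPM (median 16.97) (-1.57 (SE 0.25)). Srcin1, an inhibitor of Src signalling, had -1.81 (SE 0.33). KO 1, KO 2 and KO 3, at 18.5, 19.5 and 26.8 CPM, all lay inside its Sbp-poor range of 18.4 to 37.4 CPM. Slco4c1, an organic anion transporter gene, had -1.30 (SE 0.24), Tspan15, a tetraspanin gene, -1.23 (SE 0.24), and Wipi1, which binds phosphoinositides in autophagy, -1.03 (SE 0.18) with KO 3 inside the Sbp-poor range. Ccdc162 and 4931406C07Rik had -1.30 (SE 0.24) and -1.29 (SE 0.24). Without Het 2, edgeR called 0 genes lower (171 at an unadjusted p under 0.05), and with the skeletal muscle score or without WT 3 it called 1.

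Markers of other tissues differed in level too, without passing. All 12 tested seminal vesicle genes had negative values (median -2.81), edgeR called 0 (2 at an unadjusted p under 0.05) and DESeq2 0, and their sum was 72261 to 359676 CPM in the Sbp-poor libraries and 6598 to 200271 CPM in the Sbp-rich ones. Svs2, a major clotting protein of semen, stood at 48832, 127873 and 230595 CPM and 14792, 3901, 76065, 32380.3, 41122 and 77428 CPM (-2.55 (SE 1.03)), and Svs5 at 17196, 61329 and 91518 CPM and 10014, 2068, 27734, 34713, 28074 and 55392 CPM (-2.29 (SE 0.95)). Het 2 was the highest library for both and Het 1 the lowest, with the sets overlapping. Svs1 and Spinkl were at 0 in Het 1 and Sva in Het 3, and no tested gene of the list was at 0 elsewhere. The part of seminal vesicle RNA in the other differences was tested only by adding the list's score as a covariate, which left 114 genes called higher and 6 lower.

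Skeletal muscle genes were negative in 20 of 21 (median -2.27, or -2.12 with genes at 0 in every Sbp-poor library set to their bound), edgeR called 0 (1 at an unadjusted p under 0.05, Myh2, higher) and DESeq2 1 higher and 3 lower, and their sum was 374.5 to 1589 CPM in the Sbp-poor libraries and 171.1 to 7860 CPM in the Sbp-rich ones, with KO 2 the highest. Myh4 and Pvalb, which mark fast fibres, were at 0 in WT 1, Het 2, WT 2, Het 1 and Het 3. The list score was 2.09 in WT 3 and -2.57 and -1.61 in WT 1 and Het 2. It was -2.26, -3.18 and -1.83 in WT 2, Het 1 and Het 3, so most of the negative lean came from WT 3. Smooth muscle genes summed to 5112 to 11882 CPM and 1989 to 11539 CPM (2 of 17 with positive values), and blood genes to 418.4 to 1489 CPM and 93.8 to 673.2 CPM. Their part in the differences was not tested, apart from the skeletal muscle score as a covariate, with which 78 genes were called higher and 1 lower.

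EdgeR called 1 gene in each of a pair of lists of prostate cells and cell states: proximal luminal cells with Cldn10, a tight junction gene (4.86, 5.34 and 14.4 CPM against 21.6 to 79.5 CPM (median 39.05), 2.39 (SE 0.30)), and immediate early genes with Btg2, an antiproliferative gene (1.08 (SE 0.16)). DESeq2 called 2 higher and 1 lower in the first and 1 higher in the second. Many of the other lists had 0 called genes in edgeR. Basal cells (4 of 15 positive, median -0.33), fibroblasts (13 of 26, median -0.00071), endothelium (7 of 15, median -0.11) and macrophages (5 of 18, median -0.20) were among them, as were cell proliferation (17 of 30, median 0.14) and oxidative phosphorylation (12 of 25, median -0.04). Of these 6 lists, DESeq2 called 1 gene higher, in basal cells. T and NK cell genes had 8 of 9 positive (median 1.77), on sums of only 1.52 to 5.65 CPM in the Sbp-poor and 3.86 to 9.10 CPM in the Sbp-rich libraries. Upk1a, a urothelial plaque gene, had 2.01 (SE 0.38), called by DESeq2 (adjusted p = 8.23e-06) and not by edgeR, while 8 of the 11 urothelium genes were negative.

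**Figure D4:**
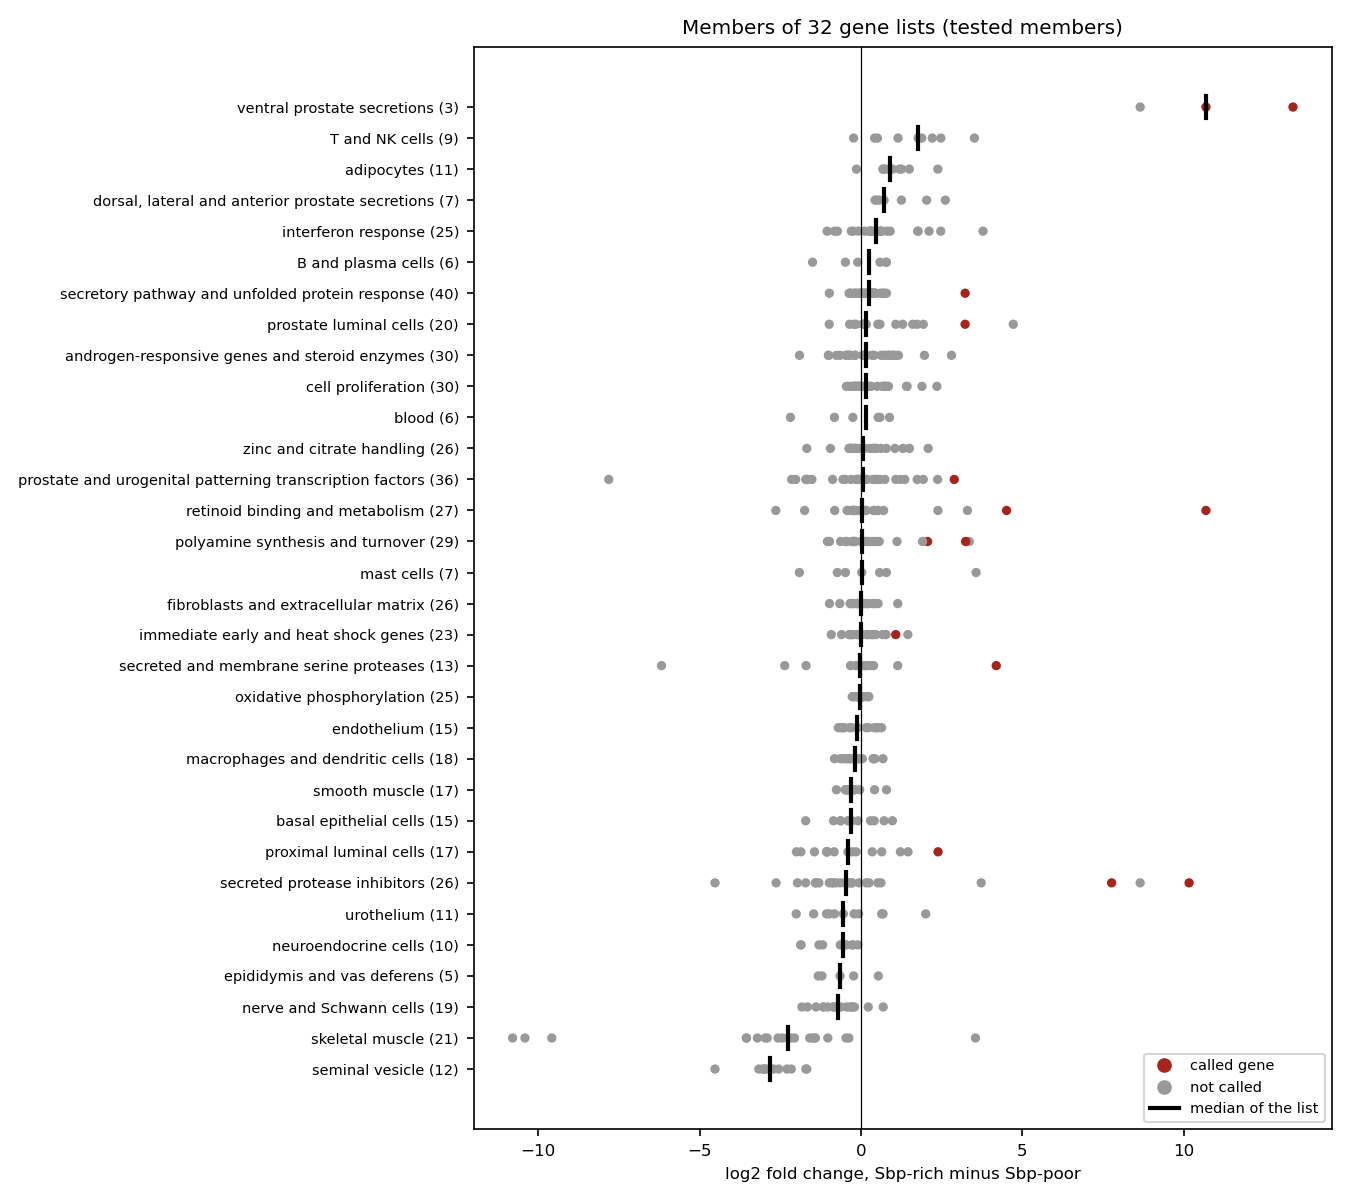
Log2 fold change of Sbp-rich over Sbp-poor libraries for every tested member of the 32 gene lists (number tested in brackets), ordered by the list median (black bar), with called genes in red. The list of 3 ventral secretion genes has the highest median, though Spink5, in the protease inhibitor list, lies to the right of Spink1. The seminal vesicle and skeletal muscle lists have medians of -2.81 and -2.27 with no called gene, and most other medians lie near 0.

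The measures so far share the libraries that made the split. Within the 6 Sbp-rich libraries, whose order the split did not use, 11 genes were set against Sbp on the log2(CPM + 1) scale, with exact permutation tests over 720 orders and Benjamini-Hochberg adjustment over the 11. Spink1 followed Sbp (Pearson r = 0.969, exact p = 0.00139, adjusted 0.00764, Spearman rho = 1.0, exact p = 0.00278, n = 6), as did Crabp1 (r = 0.899, exact p = 0.0208, adjusted 0.0382, rho = 0.829, exact p = 0.0583). Both markers rose with Sbp among these 6 libraries. Sbpl, Spink5, C2cd4a, Abo and Slc26a4 were themselves called across the split, and the relation was not computed over all genes. The permutations treat the 6 libraries as exchangeable, although genotype ran in part with Sbp. C2cd4a (r = 0.975, exact p = 0.00556, adjusted 0.0122, rho = 0.886, exact p = 0.0333) and Slc26a4 (r = 0.985, exact p = 0.00417, adjusted 0.0115, rho = 0.943, exact p = 0.0167) lay close to a straight line on this scale.

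Abo had r = 0.910 (exact p = 0.00417, adjusted 0.0115, rho = 0.943, exact p = 0.0167) and Sbpl r = 0.986 (exact p = 0.00139, adjusted 0.00764, rho = 1.0, exact p = 0.00278), the latter with reads that may be those of Sbp. Spink5 did not pass after adjustment (r = 0.840, exact p = 0.0486, adjusted 0.0764, rho = 0.6, exact p = 0.242). After adjustment over the 11, rho passed for Spink1 and Sbpl (0.0153 each) and Abo and Slc26a4 (0.0458 each), and not for C2cd4a (0.0733), Crabp1 (0.107) or Spink5 (0.332). Without Het 1 and Het 3, the 2 libraries farthest from the median of Sbp, r over the other 4 was 0.987 for C2cd4a, 0.980 for Slc26a4, 0.926 for Sbpl, 0.863 for Crabp1, 0.789 for Spink1, 0.720 for Abo and 0.307 for Spink5, so the relation of Spink5 rested on those libraries. The 4 genes of other tissues or lobes did not pass over the 6 libraries: Tgm4 (r = -0.382, rho = -0.371), Pbsn (r = -0.558, rho = -0.6), Msmb (r = -0.0206, rho = 0.0286) and Svs2 (r = -0.410, rho = -0.143) had exact p of 0.239 or more for r and 0.242 or more for rho, and adjusted p of 0.328 or more. Over the 4 libraries without Het 1 and Het 3, r was 0.851 for Msmb, above the values of Spink1 and Abo, and -0.410 for Tgm4, -0.286 for Pbsn and -0.0488 for Svs2. Genotype ran in part with Sbp here: both Het libraries were highest and KO 1 and KO 2 lowest, while KO 3 lay just above WT 2. There were too few libraries of each genotype for values within one, so genotype and the level of Sbp cannot be told apart.

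**Figure D5:**
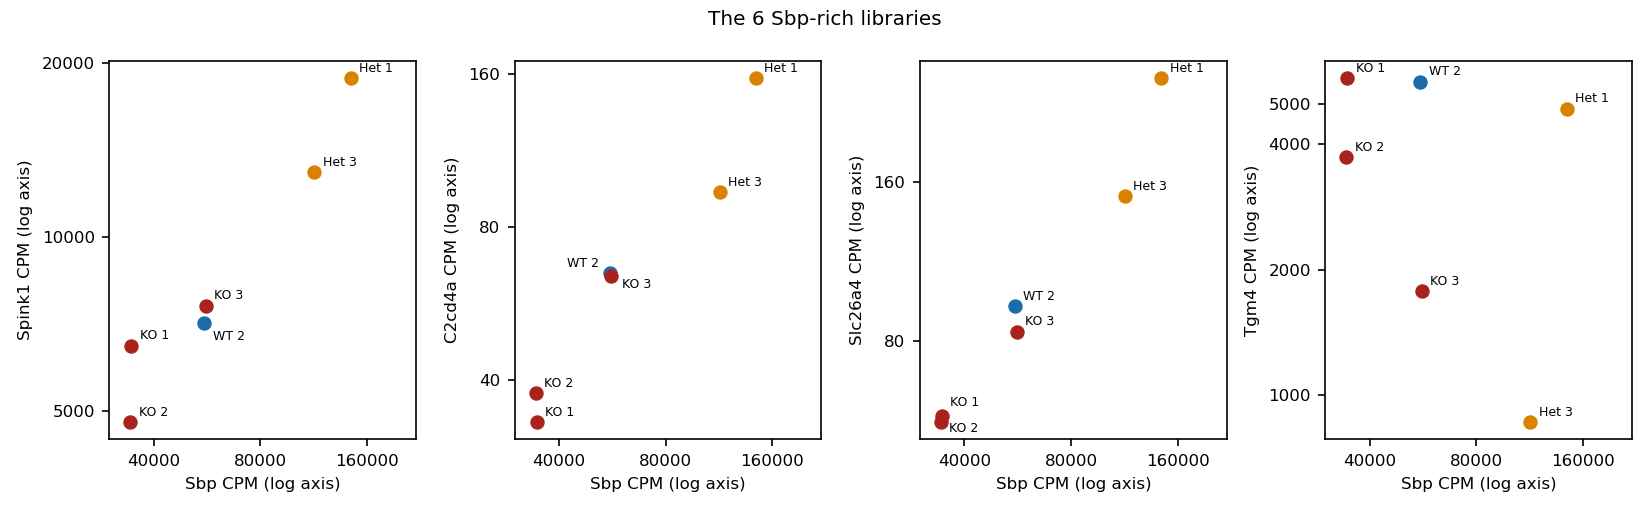
Spink1, C2cd4a, Slc26a4 and Tgm4 against Sbp in the 6 Sbp-rich libraries, CPM on log axes, 1 point a library coloured by genotype. The first 3 rise with Sbp from KO 1 and KO 2 to Het 1 (r of 0.969, 0.975 and 0.985), and Tgm4 shows no such order (r = -0.382).

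Whether the size of the difference depended on genotype was tested by the interaction of the split with WT against Het. EdgeR called 0 of 16836 genes (0%; lowest adjusted p = 0.705), with 884 at an unadjusted p under 0.05, 10 of them among the 138, where uniform p-values would give 842 genes; DESeq2 called 24. For Spink5 the difference was 9.91 in WT and 10.27 in Het, for Abo 6.01 and 6.30, for Timp4 4.53 and 5.63, and for Slc26a4 8.02 and 10.88, on the log2 CPM scale. Each side had 1 library in 1 of the sets, which limits the test. For the 19 called genes with 0 counts in every Sbp-poor library the interaction could not be estimated, with an SE of 1481 for C2cd4a and 4001 for Sbpl. The test says nothing about those genes.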

How the data were processed

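The authors deposited raw read counts per gene for 9 libraries, which are whole numbers and not normalised, and FPKM values per library; both are described per the file headers. Reads were placed on GRCm38 (mm10) per the submitters' processing notes, while no source used here names an aligner, a counter or the strand setting, so overlapping, antisense and near-identical genes (Sbp and Sbpl, Amd1 and Amd2) may share reads. Genotypes come from the library names, and replicate numbers follow accession order and pair nothing.

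Libraries were split by the raw count of Sbp (over 100000, or under 1000). Tests on the deposited counts used edgeR 4.0.16 (R 4.3.3) with TMM factors, the filterByExpr rule (16836 of 54532 genes kept, 25767 with at least 1 count), a robust quasi-likelihood model of genotype and split over all 9 libraries, and Benjamini-Hochberg adjustment over all genes tested, called under 0.05. A standard error is the size of a log2 fold change over the root of its F, with 5 residual degrees of freedom before moderation, and intervals are at 95%. Fold bounds set the mean CPM of WT 2, Het 1 and Het 3, without KO, against 3 counts over the 3 Sbp-poor libraries, 0.0499 CPM. They cover counting error only. FPKM served only to rank genes per length. List scores are mean log2 CPM (prior count 2) of a list's tested genes, less the mean of the 9 libraries. The test was tried on simulated data first, with 200 of 16836 genes changed, none of them at low counts. It recovered 62% of changes of 2 and 81% of changes of 3 on the log2 scale, with 12 false calls. A gene without a call may therefore still differ.

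Alternatives were other normalisations, filters, DESeq2 1.42.0, limma 3.58.1 voom with and without quality weights, other covariates, WT and Het alone, and leaving out each library; for the interaction, upper quartile scaling and leaving out each library were added after seeing the data. Named genes are Sbp, Spink1 and Crabp1, the 12 of smallest p on each side, the 8 with the largest change at an unadjusted p under 0.05, and up to 4 per list; some genes that this rule names are counted but not described. Adi1, Odc1, Srm, Sat1, Gne, Cmas, B4galt6, Rnf186, Papss2, Slc12a2, Slc5a8, Slc5a9, Mme, Anpep, Cbr2, Tac1, Erbb4, Tead4, Hdac9, Hoxb13, Rxra and Rxrb were chosen after their values were seen. The split, the 32 gene lists and the tests were chosen with earlier results of these data known. Promoter windows and transcripts were read with Biopython 1.88 from RefSeq and GENCODE, and exact tests used SciPy 1.17.1. Per-genotype FPKM means were not used, and 1 called gene is not reported here.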

Additional observations from a re-analysis of the deposited data

Results flagged for a closer look

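Over 111 genes and list scores, the 6 Sbp-rich libraries were examined for 1 library far from the other 5 (gap over range above Dixon's critical value of 0.625, which chance passes in about 5% of groups). There were 8 such values of the 111, not far above that share, and the values are not independent of each other. Of the 8, 6 were in Het 1, the library with the most Sbp. Het 1 was the highest for 2 called genes: Slc5a9 at 5.43 log2 CPM (others 3.44 to 4.14) and Tead4 at 4.51 (2.60 to 3.29). Het 1 was the lowest for 4 list scores: retinoid binding and metabolism at -0.40 (others 0.15 to 0.44), secreted protease inhibitors at -1.44 (0.23 to 0.75), epididymis and vas deferens at -5.10 (-0.59 to 1.98) and smooth muscle at -1.82 (-0.10 to 0.68). WT 2 was the highest for Syvn1, the gene of an endoplasmic reticulum ubiquitin ligase, at 8.78 log2 CPM (7.05 to 7.47). Het 3 was the lowest for the T and NK cell score, at -0.74 (0.35 to 0.74). Whether anything beyond chance sets these libraries apart was not tested.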

How the results depend on the processing

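Genes called between Sbp-rich and Sbp-poor libraries numbered 138 higher and 12 lower. Limits: all KO libraries are Sbp-rich, the contrast rests on 6 WT and Het libraries, and the split was made from the counts themselves. Other normalisations gave 132 to 136 higher and 11 to 14 lower, at least 1 CPM in 3 libraries 137 and 9, and no genotype term 109 and 10. The counts moved by over 1.5 times with no filter (254 higher, 85 lower), DESeq2 (534 and 274), voom (76 higher), voom with quality weights (23 lower), WT and Het alone (28 and 1), the skeletal muscle score (78 and 1), the seminal vesicle score (6 lower) and Sbp as a continuous term (5 lower). Leaving out 1 library gave 35 to 175 higher and 0 to 63 lower: 130 and 19 without WT 1, 76 and 7 without WT 2, 78 and 1 without WT 3, 175 and 48 without Het 1, 35 and 0 without Het 2 (511 higher and 171 lower at an unadjusted p under 0.05), 170 and 63 without Het 3, 98 and 5, 92 and 3, and 90 and 8 without KO 1, KO 2 and KO 3. The cause of these shifts was not tested. The 534 higher and 274 lower genes of DESeq2 were of 16833 genes tested, and its counts for the lists above are to be read against that background. Of the 138 genes, 14 were called higher under all 22 alternatives, 65 under at least 18, and 0 had a negative value under any. The median of all genes moved by less than 0.1 under each.

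Signs turned for 4 genes that were not called. Tgm4 was at -0.77 without genotype, -0.48 with the seminal vesicle score, -0.22 without Het 1 and -0.72 without Het 2, and between -0.72 and 2.17 with 1 library left out. Pbsn was at -0.19 and -0.052 in the first 2 of these. 9530053A07Rik was at -0.59, -0.26 and, without Het 2, -0.53 (up to 1.69 without WT 2), and Gsdma at -0.49, -0.22, -0.03 without Het 1 and -0.36 without Het 2 (up to 1.35 without WT 2). Genes whose split differs between WT and Het numbered 0 in edgeR (884 at an unadjusted p under 0.05), 24 in DESeq2 and 0 to 289 without 1 library (26 without Het 1, 289 without Het 3). No paired analysis was possible because the labels give no replicate numbers. Genes at a few counts in the Sbp-poor libraries have differences whose size the depth limits.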

Other observations

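Several gene groups that the text has not described leaned to one side without a called gene. Interferon response genes had 19 of 25 tested members with positive values (median 0.46), with 0 called in edgeR, 4 higher at an unadjusted p under 0.05 and 4 higher in DESeq2, and sums of 267.8 to 363.6 CPM in the Sbp-poor and 340.5 to 449.6 CPM in the Sbp-rich libraries. Adipocyte genes had 10 of 11 positive (median 0.90), with sums of 92.3 to 506.3 CPM and 303.4 to 710.3 CPM. Nerve and Schwann cell genes had 17 of 19 negative (median -0.72), with sums of 239.3 to 490.8 CPM and 201.9 to 486.2 CPM, and all 10 neuroendocrine genes were negative (median -0.57). EdgeR and DESeq2 called 0 genes of these last 3 lists.

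Called genes lay beside each other at several places. Besides Sbp with Sbpl and Slc26a3 with Slc26a4, Abo and Surf6, a nucleolar protein gene, lie 23649 bases apart on chromosome 2 with log2 fold changes of 6.19 and 1.33. Emp2, an epithelial membrane protein gene, and Tekt5, a tektin gene, lie 43980 bases apart on chromosome 16, with 1.30 and 6.46. Kcnk3, a potassium channel gene, had 1.85 and lies 44340 bases from the predicted gene Gm42765 (6.63), which overlaps Cib4 (9.37), so those 2 may share reads. The other neighbours within 100 kb were Fam102b with Slc25a24 and Smg9 with Cadm4, all 4 higher. These pairs were chosen after their values were seen.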
